A study of Mus musculus with 8 samples.

Results

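The insulin receptor, AKT and mTOR signalling genes are a list of 35 genes that runs from the receptor at the hepatocyte surface to the substrates of mTORC1. The list was chosen by function, and its members were found by matching the Ensembl identifiers of the count table to the GRCm38 gene annotation. All 35 had a row among the 18095 genes of the table, and all 35 passed the expression filter, which kept 14866 genes. The livers came from males of 2 genotypes, 4 HFD WT and 4 HFD Inpp4b-/-, 12 weeks old by the labels. All 8 mice were kept on a high-fat diet (HFD), which their dams had received before mating, through pregnancy and during lactation, so diet did not differ between the groups. INPP4B is a lipid phosphatase that acts on phosphoinositides formed downstream of PI3K, the enzyme that passes the insulin signal to AKT. The labels name C57BL/6 as the background and the paper's methods name FVB. Inpp4b-/- is a whole-body loss of the gene carried by 1 mouse line, so the values of whole liver do not separate the loss in hepatocytes from that in other tissues.

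Insulin binds a receptor tyrosine kinase, INSR, which phosphorylates the docking proteins IRS1 and IRS2. These recruit PI3K, and the lipid it makes brings AKT to PDPK1 and mTORC2, which switch AKT on. AKT then keeps FOXO1 out of the nucleus, inhibits GSK3 and releases RHEB from the TSC complex, and RHEB activates mTORC1. In liver this chain lowers glucose production and raises glycogen, lipid and protein synthesis, mostly by phosphorylation, which counts of mRNA do not measure.

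The total was 25893430 to 31427831 counts in the HFD WT libraries and 32738435 to 36662531 in the libraries labelled HFD Inpp4b-/-. Inpp4b itself was counted 6, 20, 5 and 8 times in HFD WT replicates 1 to 4 and 33, 10, 9 and 14 times in the libraries labelled HFD Inpp4b-/-. Its counts were thus not lower under the knockout label (two-sided exact permutation test, p = 0.486, n = 4 per group), and every direction below rests on the labels. A count per gene does not tell exons inside a deletion from those outside it. Hepatocyte markers summed to 79305 to 88787 CPM (the count over the TMM-normalized total of the library, times 1e+06) in HFD WT and to 82088 to 100918 CPM in the libraries labelled HFD Inpp4b-/-. The other lists overlapped as well, with 50.3 to 149.7 against 104.8 to 188.0 CPM for 8 Kupffer cell and macrophage markers. Of 6 adipocyte markers, only Adrb3 had a row in the table, and of 6 lymphocyte markers, Cd3e and Cd3d had none. Over the cell type, immediate early and clock lists, the erythroid gene Hba-a2 was the only gene called (log2 fold change -2.92, edgeR adjusted p = 0.0570), and the reads of its near-identical copy Hba-a1 make its count uncertain. An unadjusted p under 0.05 without a call was found for Ttr (0.31), Tat, Lrat (0.73), Col1a1 (0.63), Col3a1 (0.56), Sox9 (-0.71), Spp1 (0.54), Adrb3 (-1.13), Jun (-0.93), Junb (-1.67), Ier2 (0.60), Per1 (-0.97) and Dbp (0.35), as log2 fold changes. In whole liver, fewer cells of a type and less RNA per cell cannot be told apart.

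None of the 35 genes was called differentially expressed by edgeR's quasi-likelihood test, in which a call needs a Benjamini-Hochberg adjusted p under 0.10 over all genes tested and a fold change over 1.3. Among all tested genes, 174 were called, or 1.17%, with 0.552% higher and 0.619% lower. With DESeq2 at the same thresholds, 1 of the 35 was called, Tbc1d4, which was higher, against 4.04% of the 17016 genes that DESeq2 tested (1.92% higher and 2.12% lower). An unadjusted p under 0.05 was reached by 5 of the 35 genes (14.3%), with Akt1, Ptpn1 and Pdpk1 lower and Tbc1d4 and Sesn1 higher, while 13.9% of all tested genes reached it (6.8% higher and 7.14% lower). The 4 libraries of one group all lay above the 4 of the other in 5 of the 35 genes (14.3%), lower in Akt1 and Ptpn1 and higher in Tbc1d4, Sesn1 and Akt1s1, and in 8.72% of all tested genes (4.63% higher and 4.09% lower). The smallest adjusted p of the list was 0.134, that of Akt1.

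**Figure D1:**
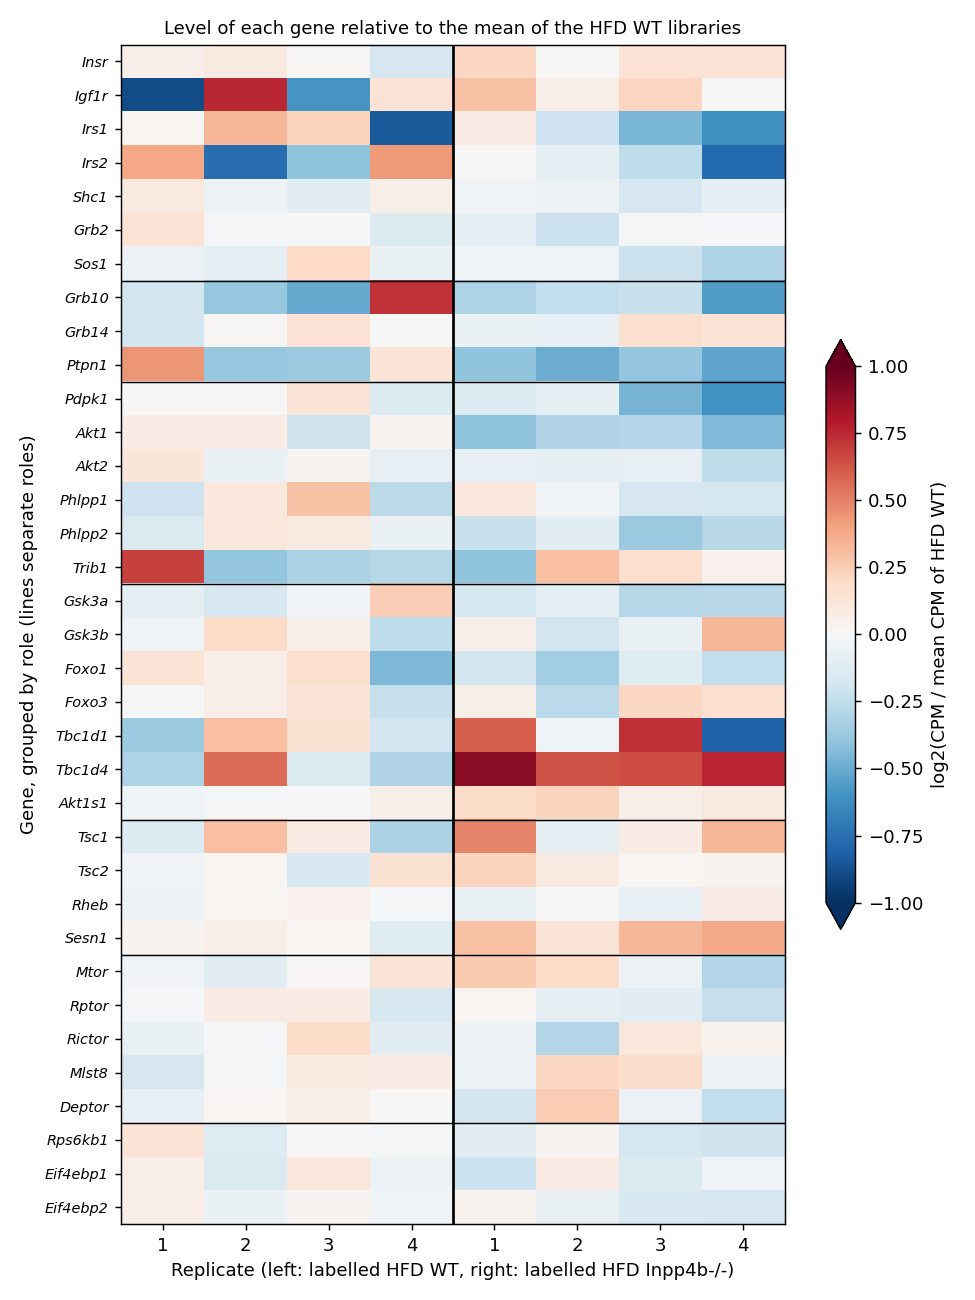
Level of each of the 35 genes (rows, grouped by role from the receptor at the top to mTORC1 substrates at the bottom) in each library (columns, replicates 1 to 4 of HFD WT at the left and of the libraries labelled HFD Inpp4b-/- at the right), as log2 of CPM over the mean CPM of the HFD WT libraries. The rows of Akt1 and Ptpn1 are blue and those of Tbc1d4 and Sesn1 red in all 4 libraries at the right. Other rows also lie wholly below the HFD WT mean there, such as Pdpk1, Foxo1, Irs2 and Grb10, or above it, such as Akt1s1. Igf1r, Irs1, Irs2, Grb10 and Trib1 vary more among HFD WT libraries than between the groups.

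The differences were small. On the log2 scale, the median fold change of the 35 genes, HFD Inpp4b-/- over HFD WT, was -0.059, with 14 higher and 21 lower, and values from -0.45 for Ptpn1 to 0.74 for Tbc1d4. The median over all tested genes was 0.0027. The median size of the change, without its sign, was 0.12 in the 35 genes and 0.18 in all genes. The median standard error (SE) of the log2 fold change was smaller as well, 0.11 against 0.18. For 26 of the 35 genes the 95% interval of the fold lay within 1.5-fold in both directions, and for 19 within 1.3-fold. Replicates agreed closely, with a median coefficient of variation of 8.75% in HFD WT and 8.78% in the libraries labelled HFD Inpp4b-/-, against 18.5% and 15.4% for all tested genes. Genes with few counts vary more, and only 4 of the 35 (Igf1r, Grb10, Tbc1d1 and Tbc1d4) had a library with under 100 counts.

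**Figure D2:**
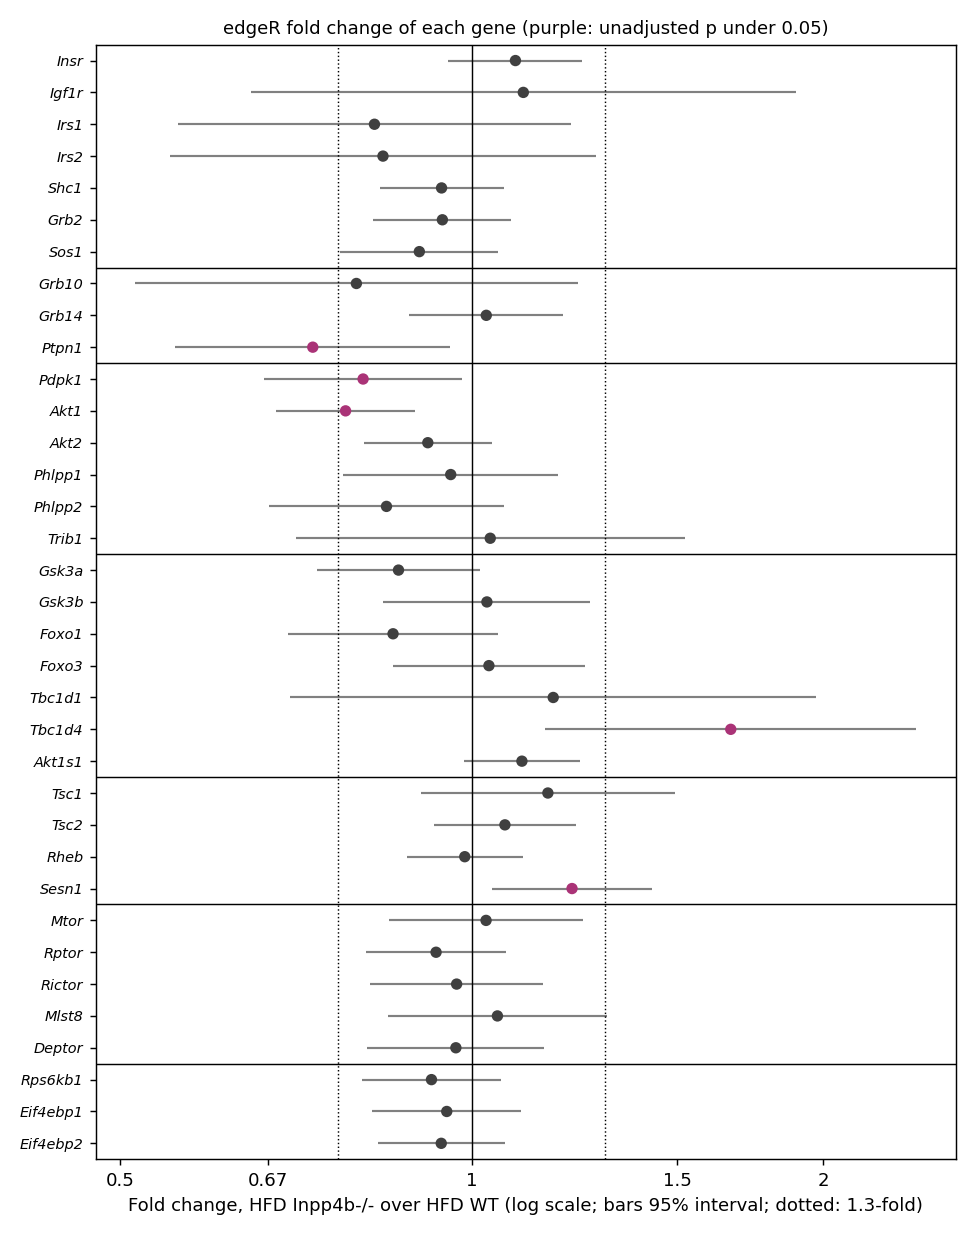
Fold change of each of the 35 genes, HFD Inpp4b-/- over HFD WT, on a log axis, with points for the edgeR estimate, bars for its 95% interval and dotted lines at 1.3-fold in each direction. Purple points mark the 5 genes with an unadjusted p under 0.05, of which Ptpn1 (0.731) and Tbc1d4 (1.67) lie beyond the dotted lines and Akt1 (0.780) just inside them.

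Levels of different genes were compared per length, as CPM per kilobase of merged exons. The translation repressor Eif4ebp2 was the most abundant, at 54.5 in HFD WT and 51.4 in the libraries labelled HFD Inpp4b-/-. A group of 6 genes followed at 16.1 to 19.3 in HFD WT, namely Eif4ebp1, Grb2, Akt2, Deptor, Akt1 and Akt1s1. Insr stood at 9.08 and 9.90 in the 2 groups. The lowest was Igf1r at 0.139 and 0.154, a receptor that adult hepatocytes are known to express weakly. Insr mRNA was thus the main form of this receptor pair in all 8 libraries. Docking protein Irs2 (3.55 in HFD WT) stood above Irs1 (1.13).

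**Figure D3:**
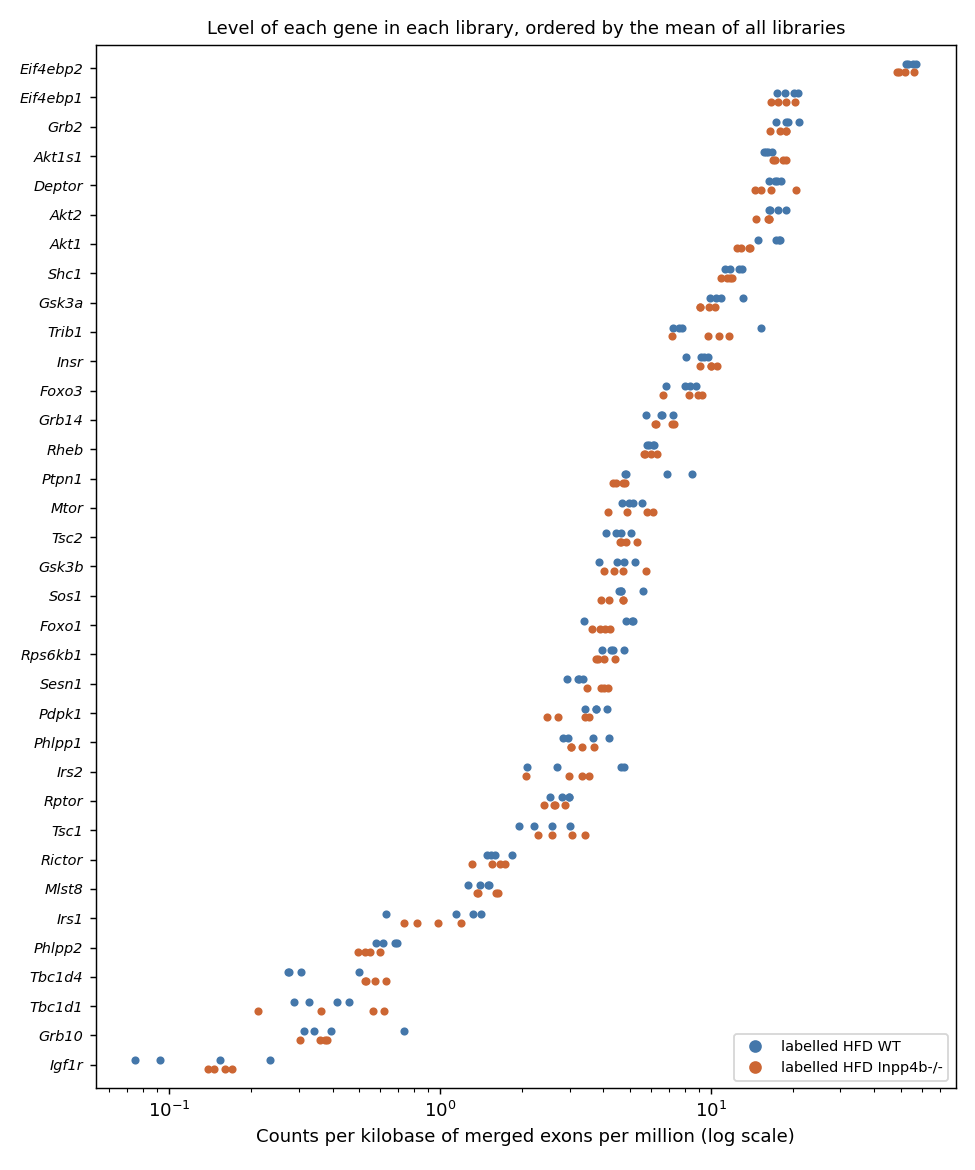
Level of each of the 35 genes per length of merged exons (horizontal log axis) in each of the 8 libraries, blue for HFD WT and orange for the libraries labelled HFD Inpp4b-/-, ordered by the mean of all libraries. Eif4ebp2 is at the top and Igf1r at the bottom, and the points of both groups overlap in most rows, with Akt1, Ptpn1, Tbc1d4, Sesn1 and Akt1s1 as the rows in which they do not.

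At the receptor, Insr (ENSMUSG00000005534, chromosome 8) had 129, 133, 126 and 111 CPM in HFD WT replicates 1 to 4 and 144, 125, 138 and 138 CPM in the libraries labelled HFD Inpp4b-/-. Only HFD Inpp4b-/- replicate 2 lay within the range of HFD WT, and the log2 fold change was 0.12 (SE 0.085, edgeR adjusted p = 0.557). The 95% interval of the fold ran from 0.955 to 1.24. Igf1r, the receptor of insulin-like growth factors, ranged from 1.25 to 3.94 CPM in HFD WT and from 2.33 to 2.86 CPM in the other group.

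The docking protein Irs1 had 10.4, 12.9, 12.0 and 5.76 CPM in HFD WT and 10.9, 8.94, 7.5 and 6.71 CPM in the libraries labelled HFD Inpp4b-/-. HFD WT replicate 4 was the lowest of all 8, the groups overlapped, and the log2 fold change was -0.28 (SE 0.25, edgeR adjusted p = 0.667). A gene model on the opposite strand, Gm9747, covers 30.9% of the exon length of Irs1, so its counts are uncertain. Irs2, the second docking protein and a gene that insulin represses through FOXO1, had 29.4, 13.2, 17.0 and 30.2 CPM in HFD WT. In the libraries labelled HFD Inpp4b-/- it had 22.4, 21.0, 18.9 and 13.1 CPM, of which only the last was below the HFD WT range. HFD WT replicates 1 and 4 were the highest, and the log2 fold change was -0.25 (SE 0.271, edgeR adjusted p = 0.722). It was -0.09 without HFD WT replicate 1, -0.08 without replicate 4 and -0.45 without replicate 2. The adaptors that link the receptor to RAS showed log2 fold changes of -0.09 (Shc1), -0.08 (Grb2) and -0.15 (Sos1), none with an unadjusted p under 0.05.

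Irs1 and Irs2 are shown with their promoter sequences because they share letters of 2 motifs within a few bases of each other, and Akt1 because its fold change had the smallest p of the list. The sequences are those of RefSeq on GRCm38.p6, 5′ to 3′ on the strand of the gene, ending at the base before the RefSeq start site, with the motif letters in capitals. TGTTTTG is the reverse complement of CAAAACA, the core of the insulin response element that FOXO1 binds, TGTTTAC that of GTAAACA, a forkhead motif, and CACGTG an E-box. In Irs1 the E-box and the first TGTTTTG overlap by a pair of bases.
Irs1, chr1:82291440-82291589, minus strand: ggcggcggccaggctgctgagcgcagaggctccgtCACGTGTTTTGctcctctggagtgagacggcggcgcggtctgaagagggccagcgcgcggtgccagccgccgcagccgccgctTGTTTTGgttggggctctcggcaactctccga
Irs2, chr8:11008930-11009079, minus strand: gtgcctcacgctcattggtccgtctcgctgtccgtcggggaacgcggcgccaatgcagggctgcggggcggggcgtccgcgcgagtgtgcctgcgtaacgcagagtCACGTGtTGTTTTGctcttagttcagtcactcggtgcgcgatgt
Akt1, chr12:112674885-112675084, minus strand: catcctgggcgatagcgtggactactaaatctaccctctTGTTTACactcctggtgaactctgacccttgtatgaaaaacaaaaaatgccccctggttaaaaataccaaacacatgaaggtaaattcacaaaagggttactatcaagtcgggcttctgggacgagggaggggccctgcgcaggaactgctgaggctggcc
Windows of 300 bases around the start were searched on both strands for 31 of the 35 genes, and those of Insr, Trib1, Deptor and Eif4ebp1 were not searched here. CAAAACA was found in 2 of the 31 (6.45%), Irs1 and Irs2, and in 7.20% of the windows of 27025 genes. CACGTG was found in 3 (9.68%), Irs1, Irs2 and Rheb, and in 8.09% of all. GTAAACA was found in 2 (6.45%), Akt1 and Sesn1, and in 4.05% of all. These are matches of letters, not measured binding sites.

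Among the receptor inhibitors, Ptpn1 encodes the phosphatase PTP1B, which dephosphorylates the receptor. Ptpn1 (ENSMUSG00000027540, chromosome 2) had 47.1, 26.6, 26.9 and 38.1 CPM in HFD WT replicates 1 to 4. In the libraries labelled HFD Inpp4b-/- it had 26.2, 24.7, 26.5 and 24.1 CPM. All 4 were below the lowest HFD WT value, but HFD WT replicates 2 and 3 were within 3 CPM of each of them and the distance rested on replicates 1 and 4. This was a log2 fold change of -0.45 (SE 0.175, unadjusted p = 0.0276, edgeR adjusted p = 0.293), and it was -0.27 without HFD WT replicate 1. Grb10, an adaptor that inhibits the receptor, was highest in HFD WT replicate 4 at 6.68 CPM, with 2.86 to 3.58 CPM in the other HFD WT libraries and 2.75 to 3.48 CPM under the knockout label. Its relative Grb14, the more abundant of the pair in liver, had a log2 fold change of 0.04, with a 95% interval of the fold from 0.885 to 1.2.

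HFD WT replicate 4 also stood apart in genes of acute response, while replicate 1 was close to the highest library of the other group. The 8 immediate early genes summed to 129 and 339 CPM in HFD WT replicates 1 and 4 and to 75.0 and 74.8 CPM in replicates 2 and 3. In the libraries labelled HFD Inpp4b-/- they summed to 83.4 to 125.7 CPM. Of the 7 of these genes tested, 5 were lower and 2 higher under the knockout label. Ier2 was among the higher (log2 fold change 0.60, edgeR unadjusted p = 0.00294). Junb, a member of that list, had 56.1, 17.5, 26.6 and 204 CPM in HFD WT and 20.9 to 27.7 CPM in the other group. The part of these libraries' handling in the values of Ptpn1, Irs2 and Grb10 was not tested. Without HFD WT replicate 1, and without replicate 4, the number of the 35 genes called was 0 as well.

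Akt1 had the smallest p of the list. AKT1 and AKT2 phosphorylate the same kinds of substrate, and AKT2 is the isoform best known for insulin action in liver. Akt1 (ENSMUSG00000001729, chromosome 12) had 73.5, 73.2, 60.7 and 71.1 CPM in HFD WT and 52.7, 56.5, 57.0 and 51.2 CPM in the libraries labelled HFD Inpp4b-/-. The groups did not overlap, and the nearest values were those of HFD WT replicate 3 and HFD Inpp4b-/- replicate 3. Akt1 had a log2 fold change of -0.36 (SE 0.088, unadjusted p = 0.00234, edgeR adjusted p = 0.134), a fold of 0.780 with a 95% interval from 0.681 to 0.894. DESeq2 gave an adjusted p of 0.0210, with a log2 fold change of -0.37 that was just short of 1.3-fold. In the fits that left out each library in turn, the edgeR adjusted p ranged from 0.109 to 0.305.

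Akt2 had 134, 118, 126 and 117 CPM in HFD WT and 117, 116, 117 and 104 CPM in the libraries labelled HFD Inpp4b-/-. The groups overlapped near 117 CPM, with a log2 fold change of -0.12 (SE 0.082, edgeR adjusted p = 0.533). Per length, Akt1 and Akt2 mRNA were nearly equal in HFD WT, with a ratio of Akt1 to Akt2 of 0.984 ± 0.111 (SD, n = 4). Under the knockout label it was 0.834 ± 0.034 (SD, n = 4). The difference did not pass a two-sided exact permutation test (p = 0.114, adjusted p = 0.357 over 10 ratios, where 0.0286 is the smallest p that 4 against 4 allows).

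Pdpk1, the kinase that activates AKT at the membrane, had 41.1, 41.0, 45.1 and 37.3 CPM in HFD WT and 37.4, 38.7, 29.8 and 27.0 CPM under the knockout label. Replicates 3 and 4 of the second group were the lowest, while its replicates 1 and 2 lay within the HFD WT range. For Pdpk1 the log2 fold change was -0.31 (SE 0.126, unadjusted p = 0.0350, edgeR adjusted p = 0.314). The genes that turn AKT off were nearer to 0 than Pdpk1, though Phlpp2 was farther from 0 than Akt2. The log2 fold change was -0.06 for the phosphatase Phlpp1 and -0.24 for Phlpp2, with edgeR adjusted p of 0.883 and 0.505. Trib1, a pseudokinase reported to bind AKT and known for its part in liver lipid metabolism, had 95.1 CPM in HFD WT replicate 1, 45.3 to 48.6 CPM in the other HFD WT libraries and 44.8 to 72.9 CPM in the libraries labelled HFD Inpp4b-/-.

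**Figure D4:**
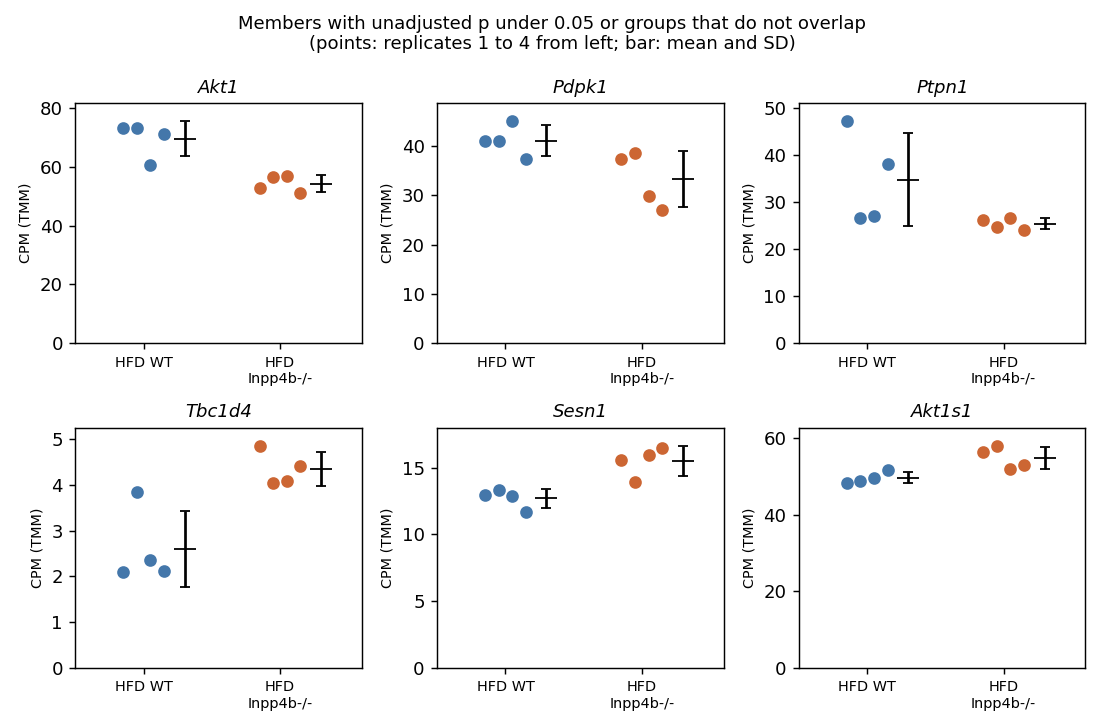
CPM of Akt1, Pdpk1, Ptpn1, Tbc1d4, Sesn1 and Akt1s1 in each library (vertical axes from 0), with replicates 1 to 4 from left to right in each group and the mean with its SD beside them. In 5 of the 6 panels the groups do not overlap, Pdpk1 being the exception, and HFD WT replicates 1 and 4 of Ptpn1 and replicate 2 of Tbc1d4 stand above the rest of their group.

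Substrates of AKT had fold changes in both directions. Tbc1d4, also called AS160, is a RAB GTPase-activating protein that AKT inhibits to bring glucose transporters to the surface of muscle and fat cells. Tbc1d4 (ENSMUSG00000033083, chromosome 14) had 2.10, 3.84, 2.36 and 2.11 CPM in HFD WT and 4.86, 4.05, 4.09 and 4.41 CPM in the libraries labelled HFD Inpp4b-/-. The groups did not overlap, and HFD WT replicate 2 stood close to the other group.

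The log2 fold change of Tbc1d4 was 0.74 (SE 0.236, unadjusted p = 0.0111, edgeR adjusted p = 0.217), a fold of 1.67 with a 95% interval from 1.16 to 2.40. It was the largest difference of the list, at a low level of 55 counts in the lowest library. Without HFD WT replicate 2 the gene was called, with a log2 fold change of 0.98 (edgeR adjusted p = 0.0726). Its relative Tbc1d1 ranged from 2.14 to 3.40 CPM in HFD WT and from 1.57 to 4.57 CPM in the other group, which spans the whole range of HFD WT.

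Foxo1, the transcription factor through which insulin restrains glucose production, had 44.0, 41.9, 44.6 and 29.3 CPM in HFD WT and 35.3, 31.3, 36.7 and 33.7 CPM in the libraries labelled HFD Inpp4b-/-. HFD WT replicate 4 was below all of these, so the groups overlapped, and the log2 fold change was -0.22 (SE 0.133, edgeR adjusted p = 0.490). Its relative Foxo3 had a log2 fold change of 0.05. The ratio of Foxo1 to Foxo3 per length was 0.574 ± 0.058 in HFD WT and 0.483 ± 0.048 in the other group (SD, n = 4, two-sided exact permutation test, p = 0.0571, adjusted p = 0.357 over the 10 ratios).

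The glycogen synthase kinases Gsk3a and Gsk3b had log2 fold changes of -0.21 and 0.04, neither with an unadjusted p under 0.05. Antisense transcript 9130221H12Rik, which the table also counts, covers 28.3% of the exon length of Gsk3a. Akt1s1 encodes PRAS40, which restrains mTORC1 until AKT phosphorylates it. It had 48.3, 48.9, 49.7 and 51.6 CPM in HFD WT and 56.4, 57.9, 51.8 and 52.9 CPM in the libraries labelled HFD Inpp4b-/-. The groups did not overlap, but HFD WT replicate 4 and HFD Inpp4b-/- replicate 3 nearly met, and the log2 fold change was 0.14 (SE 0.074, unadjusted p = 0.0836, edgeR adjusted p = 0.426).

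Of the genes that gate mTORC1, Sesn1 encodes a sestrin, one of the proteins that hold mTORC1 back when amino acids are scarce and a known FOXO and p53 target. It had 13.0, 13.4, 12.9 and 11.7 CPM in HFD WT and 15.6, 13.9, 16.0 and 16.5 CPM in the libraries labelled HFD Inpp4b-/-. The groups did not overlap, with HFD Inpp4b-/- replicate 2 nearest to HFD WT. The log2 fold change was 0.29 (SE 0.101, unadjusted p = 0.0186, edgeR adjusted p = 0.260), a fold of 1.22 that is below the threshold of 1.3. The TSC complex, which switches RHEB off, had log2 fold changes of 0.22 (Tsc1) and 0.09 (Tsc2), and Rheb had -0.02 with a fold between 0.880 and 1.11.

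The kinase itself, Mtor, had 50.3, 47.4, 51.8 and 56.1 CPM in HFD WT and 61.5, 58.6, 49.3 and 42.0 CPM in the libraries labelled HFD Inpp4b-/-. The second group held both the 2 highest and the lowest of the 8 values, and the log2 fold change was 0.04 (SE 0.124, edgeR adjusted p = 0.916, 95% interval of the fold from 0.849 to 1.25). The scaffold of mTORC1, Rptor, had -0.10 and that of mTORC2, Rictor, -0.04. The subunit that both complexes share, Mlst8, had 0.07, and the inhibitor Deptor had -0.04 on the same scale. Bricd5, a gene on the opposite strand, covers 22.5% of the exon length of Mlst8, so the counts of Mlst8 are uncertain. No gene of the complexes had an unadjusted p under 0.05. The mTORC1 substrates Rps6kb1, which encodes the S6 kinase, Eif4ebp1 and Eif4ebp2, which encode repressors of cap-dependent translation, had log2 fold changes of -0.11, -0.07 and -0.09. Their 95% intervals of the fold lay between 0.805 and 1.10.

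Insr, Irs2, Eif4ebp1 and Phlpp2 lie on chromosome 8 with Inpp4b, at distances of 27.7 to 78.1 Mb. None of the 4 was called, although 39 of the 828 tested genes of chromosome 8 were (4.71%). Sequence that the knockout line kept from its strain of origin and the loss of Inpp4b cannot be told apart for genes near Inpp4b.

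A wider list of 118 other genes of the same pathways was examined, of which 113 had a row and 110 were tested. Of these, 2 were called, both lower, beside 1.17% of all tested genes called (0.552% higher and 0.619% lower). An unadjusted p under 0.05 was reached by 11 (10%, 3 higher and 8 lower), beside 13.9% of all tested genes. The median log2 fold change of the 110 was -0.0015, and 55 were higher and 55 lower.

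Hsp90aa1, the inducible form of the chaperone HSP90 that stabilizes AKT among many clients, had 425, 388, 361 and 603 CPM in HFD WT and 254, 295, 229 and 224 CPM in the libraries labelled HFD Inpp4b-/-. The groups did not overlap, HFD WT replicate 4 was the highest, and the gene fell by 0.83 on the log2 scale (SE 0.166, edgeR adjusted p = 0.0782). Sgk1, a kinase related to AKT that mTORC2 activates and glucocorticoids induce, had 18.7, 15.8, 14.6 and 18.5 CPM in HFD WT and 12.1, 10.2, 11.8 and 11.1 CPM in the other group. It fell by 0.58 (SE 0.118, edgeR adjusted p = 0.0804). Both calls were close to the threshold in this edgeR fit. Over 14 alternative fits, by edgeR or DESeq2, the adjusted p ran from 0.00054 to 0.280 for Hsp90aa1 and from 0.0018 to 0.264 for Sgk1. Hsp90aa1 was no longer called without HFD WT replicate 1 or without any one of the 4 libraries labelled HFD Inpp4b-/-, and Sgk1 without those or HFD WT replicate 4.

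The PI3K subunits had log2 fold changes of -0.12 (Pik3ca, catalytic), 0.24 (Pik3r1, regulatory) and 0.28 (Pik3r2, regulatory, unadjusted p = 0.0185, edgeR adjusted p = 0.260). Inpp5k, a phosphatase of the lipids that PI3K makes, had 0.27 (unadjusted p = 0.0281, edgeR adjusted p = 0.294). Of the genes of mTORC1 nutrient sensing, such as the RAG GTPases and their regulators, 0 of 28 tested had an unadjusted p under 0.05 in edgeR. Of the RAS and ERK arm it was 0 of 10, and over all tested genes 13.9%.

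The remaining genes with an unadjusted p under 0.05 were Ptpn11 (-0.21), Hsp90ab1 (-0.38), Them4 (-0.41), Ralgapa2 (0.32), Larp1 (-0.23), Atg13 (-0.40) and Eif4ebp3 (-1.47), none called by edgeR. Eif4ebp3, another translation repressor of the same family as Eif4ebp1, had 7.71, 3.62, 10.1 and 5.80 CPM in HFD WT and 1.42, 1.79, 2.80 and 3.82 CPM in the libraries labelled HFD Inpp4b-/-. HFD WT replicate 2 lay within the other group (edgeR adjusted p = 0.147, DESeq2 adjusted p = 0.00586). A readthrough gene model on the same strand shares most of its exon sequence, so its counts are uncertain.

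Genes that insulin regulates in liver were read beside the list. Of 7 FOXO1 targets that insulin suppresses, 3 were higher and 4 lower, with log2 fold changes from -2.57 to 0.41. Of the 7, 0 were called by edgeR, beside 1.17% of all tested genes. An unadjusted p under 0.05 was reached by 2 (28.6%), beside 13.9% of all tested genes. Igfbp1, a secreted binding protein whose mRNA insulin lowers within hours, had 41.6, 5.76, 8.99 and 54.0 CPM in HFD WT and 4.97, 3.13, 7.14 and 3.37 CPM in the libraries labelled HFD Inpp4b-/-. HFD WT replicates 1 and 4 carried the difference, and HFD WT replicate 2 lay within the other group. Replicates 1 and 4 were also highest in Irs2, Ptpn1 and the sum of the immediate early genes, in that sum by little for replicate 1. Its log2 fold change was -2.57 (SE 0.668, edgeR adjusted p = 0.151), and DESeq2 called it (adjusted p = 0.0285). Without HFD WT replicate 2, edgeR called it too (adjusted p = 0.0518). The labels do not record when the mice last fed, the paper's discussion speaks of the fed state for its liver transcripts, and the part of feeding in these values was not tested.

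The gluconeogenic genes Pck1 and G6pc had log2 fold changes of -0.53 (edgeR adjusted p = 0.534) and 0.08 (edgeR adjusted p = 0.938). That of Pck1 was -0.14 without HFD WT replicate 1. Tat, which encodes a tyrosine-degrading enzyme induced by glucocorticoids and glucagon, had 2830, 1114, 1047 and 1068 CPM in HFD WT and 831, 362, 795 and 882 CPM in the libraries labelled HFD Inpp4b-/- (log2 fold change -1.08, edgeR adjusted p = 0.254, and -0.58 without HFD WT replicate 1). Of 8 genes that insulin induces, 5 were higher and 3 lower, with log2 fold changes from -0.28 to 0.57, and 0 were called by edgeR or DESeq2. An unadjusted p under 0.05 was reached by 1 (12.5%, beside 13.9% of all tested genes). This was Pklr (0.53, edgeR adjusted p = 0.297), the liver pyruvate kinase. Srebf1, which encodes the lipogenic factor SREBP1, had a log2 fold change of 0.57 (SE 0.343, edgeR adjusted p = 0.492).

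**Figure D5:**
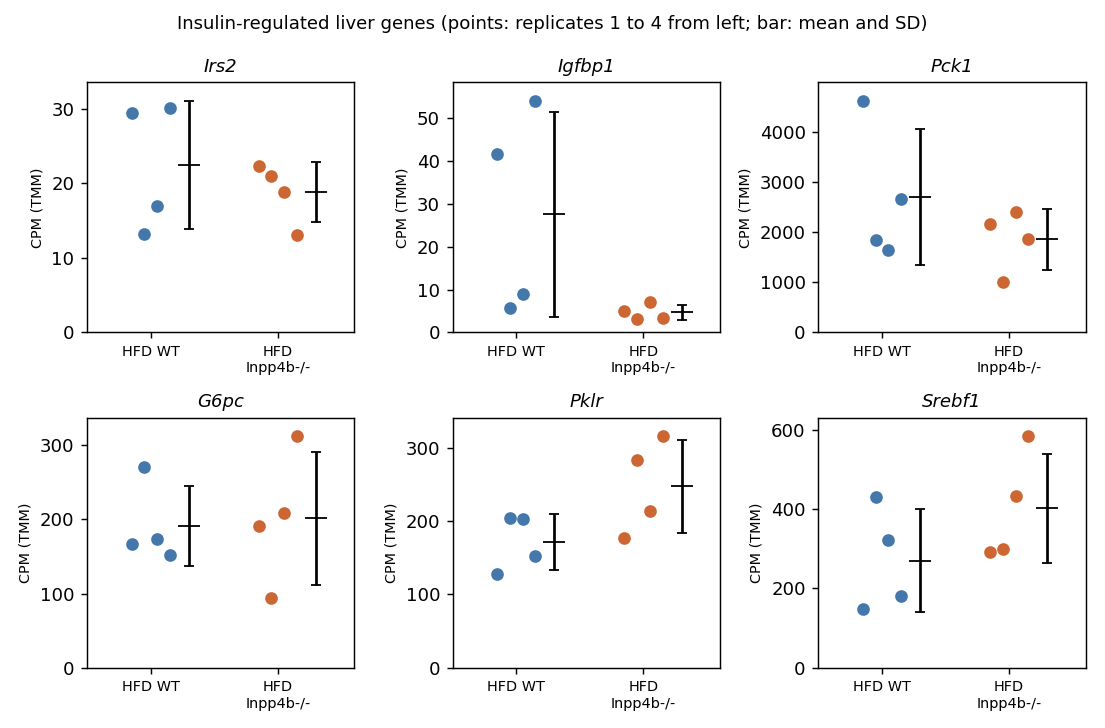
CPM of Irs2, Igfbp1, Pck1, G6pc, Pklr and Srebf1 in each library (vertical axes from 0), with replicates 1 to 4 from left to right in each group and the mean with its SD beside them. HFD WT replicates 1 and 4 are the highest in Irs2, Igfbp1 and Pck1, and the groups overlap in all 6 panels.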

How the data were processed

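Total liver RNA of 4 HFD WT and 4 HFD Inpp4b-/- males was depleted of rRNA and sequenced from libraries made with the NEBNext Ultra kit. The authors aligned the reads to GRCm38 with HISAT2, counted them by gene with HTSeq, and deposited the counts unnormalized. The annotation release and strand setting are not given in the sources used here, so overlapping and antisense genes have uncertain counts. The table holds genes with at least 1 read in every library of a genotype, 18095 in all. A normalized table, in which the counts are divided by 1 factor per library, was not used. The ranges of the animal numbers in the labels do not overlap between the genotypes, but no label names a cohort or batch. If the genotypes were raised or handled as separate cohorts, cohort and genotype cannot be told apart. The part of cohort in the values was not tested. Nothing states how the animals of a group were related, and p-values measure the spread between these samples.

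Counts were fitted for all genes with edgeR 4.0.16 (TMM, filterByExpr, glmQLFit, glmQLFTest, R 4.3.3, no covariate, common biological coefficient of variation 0.251), with the thresholds of the study (FDR under 10%, fold over 1.3). Single ratios, and Inpp4b after adding 0.1 CPM, were tested by exact permutation of libraries. Totals of 25893430 to 36662531 counts per library put the 35 genes at 34 to 11661 counts. The fit was tested on simulated data. Alternatives were DESeq2 1.42.0, other normalizations, filters and thresholds, a block for the replicate number, and fits without each library in turn. The members, lists and rules were chosen with earlier results of these data known, and the 10 ratios after the counts were seen. All members were named, with per-library values for those with an unadjusted p under 0.05, without overlap or central to the pathway. Other genes were named at an unadjusted p under 0.05, or as fixed pathway genes. Single values of some genes under this rule are not reported here. GENCODE M21 gave symbols, positions and exon lengths. The share of the 100-base windows of each member's exons found in another gene was 0 for 24 of the 35.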

Additional observations from a re-analysis of the deposited data

Results flagged for a closer look

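In 70 groups of 4 libraries (35 genes, 2 groups each), the gap of a library to the nearest other was divided by the range of the 4. The library was marked when this ratio exceeded the 95% critical value of Dixon's test. Chance marks about 1 in 20 groups, or 3.5 here, and 4 were marked. Sos1, the RAS exchange factor recruited by GRB2, had 59.2 CPM in HFD WT replicate 3, with 49.3 CPM in the next library. Trib1 had 95.1 CPM in HFD WT replicate 1, with 48.6 CPM in the next. Tbc1d4 had 3.84 CPM in HFD WT replicate 2, with 2.36 CPM in the next. Akt2 had 103.9 CPM in HFD Inpp4b-/- replicate 4, with 115.9 CPM in the next. Without HFD WT replicate 1, Trib1 had the largest of its log2 fold changes, 0.38, against 0.05 with all libraries.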

How the results depend on the processing

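Of 490 values of the 35 genes (14 alternative fits each), 467 kept their direction and their side of the threshold, 21 reversed and 2 became called, both Tbc1d4 (with DESeq2, and in the fit that left out HFD WT replicate 2). No reversal was seen for 24 of the 35 genes. The number of the 35 called was 0 to 1 when a library was left out and 1 with DESeq2. Those without overlap were 5 to 8, and the median log2 fold change of all 35 was -0.069 to -0.030. Genes of the list with an unadjusted p under 0.05 were 2 (without HFD Inpp4b-/- replicate 4) to 6. Over all genes, calls were 174, with 688 by DESeq2, 71 at an adjusted p under 0.05, and 53 (without HFD Inpp4b-/- replicate 2) to 345 (without HFD WT replicate 2). Calls among the other pathway genes were 0 to 4 when a library was left out, and those among insulin-regulated genes 0 to 1, with 1 by DESeq2 (Igfbp1). The cause was not tested.

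A replicate block in the fit left 26 calls over all genes, 0 of the 35 and 0 of the other pathway genes. Libraries with the same number correlated at -0.170 to -0.010 in their deviations from the group means, against -0.034 to 0.139 for pairs with different numbers. Libraries with the same number were thus not more alike, but so few pairs cannot exclude a shared litter or day.

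Log2 fold changes that reversed when a library was left out ranged from -0.057 to 0.52 (Igf1r), -0.46 to 0.020 (Grb10), -0.013 to 0.094 (Grb14), -0.137 to 0.055 (Phlpp1), -0.067 to 0.38 (Trib1), -0.066 to 0.114 (Gsk3b), -0.019 to 0.143 (Foxo3), -0.051 to 0.0023 (Rheb, also 0.0060 with upper quartile normalization), -0.039 to 0.137 (Mtor), -0.096 to 0.034 (Rictor), -0.160 to 0.018 (Deptor) and, outside the list, -0.212 to 0.316 (G6pc). Without reversing, those of Irs1 ranged from -0.47 to -0.16, Irs2 from -0.45 to -0.08, Foxo1 from -0.35 to -0.17, Pck1 from -0.71 to -0.14 and Srebf1 from 0.34 to 0.88. No gene of the list was below the expression filter, so no value with another pseudocount was needed.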
